A study of Gallus gallus with 6 samples.

Results

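The interleukin-1 and interleukin-18 axis was followed in granulation tissue of the chicken chorioallantoic membrane (CAM), the respiratory membrane under the eggshell, rich in vessels. Its members were taken as all probe sets annotated with the symbols IL1B, IL18, IL1R1, IL1RAP, IL18R1, IL1RL1, IL1R2 or IRAK4. The symbols were listed with earlier results of these data known, and IL1B and IL1RAP are among the study's up-regulated genes. Every probe set of a symbol was kept, whatever its values. This gave 13 probe sets for 8 genes, among 38439 probe sets and 13009 genes with a singly annotated probe set. A gene is led by its brightest probe set, the one of highest mean over the 6 arrays. Wound CAM came from brown Leghorn eggs cultured for 10 days, in which the epithelium had been cut and scraped off and the wound covered with a nylon grid, and was taken 6 days later. Before wounding, the shells had been cracked and the contents moved to Petri dishes, so the CAM studied here grew without its shell. Control CAM was uninjured membrane excised from the same 3 eggs at the same time, and no transgene or drug is described for either group. Each group has 3 Affymetrix chicken GeneChips, 1 array per sample. The values are the log2 intensities per probe set that the authors obtained by robust multi-array averaging (RMA), a method that subtracts background, brings the arrays to a common distribution and combines the probes of each set into a single value.

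Interleukin-1β and interleukin-18 are inflammatory cytokines, which in mammals are made as inactive precursors and cut by caspase-1. Interleukin-1β binds the receptor IL1R1, which then pairs with the accessory chain IL1RAP, and interleukin-18 binds IL18R1. The chains inside the cell recruit the adaptor MYD88 and the kinase IRAK4, and the signal runs on to NF-κB and the MAP kinases. IL1R2 binds interleukin-1 but lacks the signalling domain, and so acts as a decoy. IL1RL1, also called ST2, is the receptor of interleukin-33 in mammals. In wounds these cytokines are best known from inflammatory leukocytes, which release them early after injury. The sources used here hold no sequence of these genes, and none is shown.

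Of the 8 genes, IL1B alone rose in wound over control CAM by limma (adjusted p under 0.05 over all probe sets), while 0 fell and the other 7 missed the threshold. This is 12.5% of the genes higher, against 3.92% of the lead probe sets of all genes higher and 0.392% lower. These counts come from a fit that ignores the replicate numbers. Once limma matched each wound to the control of its number, 0 of the 8 rose and 0 fell (IL1B adjusted p = 0.0867). The share of all probe sets called higher fell too, from 2.04% to 0.702%. The 3 wounds lay above the 3 controls in IL1B, IL18, IL1RAP, IL18R1 and IL1R2, which is 62.5% of the genes against 20.8% of all genes. In IL1RL1 the wounds lay below the controls, a pattern of 7.81% of all genes, and in IL1R1 and IRAK4 the groups overlapped. The median log2 fold change (wound minus control) of the 8 genes was 0.89, against 0.01 over the lead probe sets of all genes. Measured changes exceeded 2-fold in 4 genes, IL1B, IL18, IL1RAP and IL18R1. At an unadjusted p under 0.05, 6 of the 8 passed. The shares of all genes past 2-fold or past this p were not counted. Such counts, here and for the lists below, therefore stand without a background. With 3 arrays a group, no single gene can reach an exact two-sided permutation p under 0.1, so the tests rest on limma, and precision is limited by the number of arrays. In bulk tissue, fewer cells of a type and less RNA per cell cannot be told apart.

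**Figure D1:**
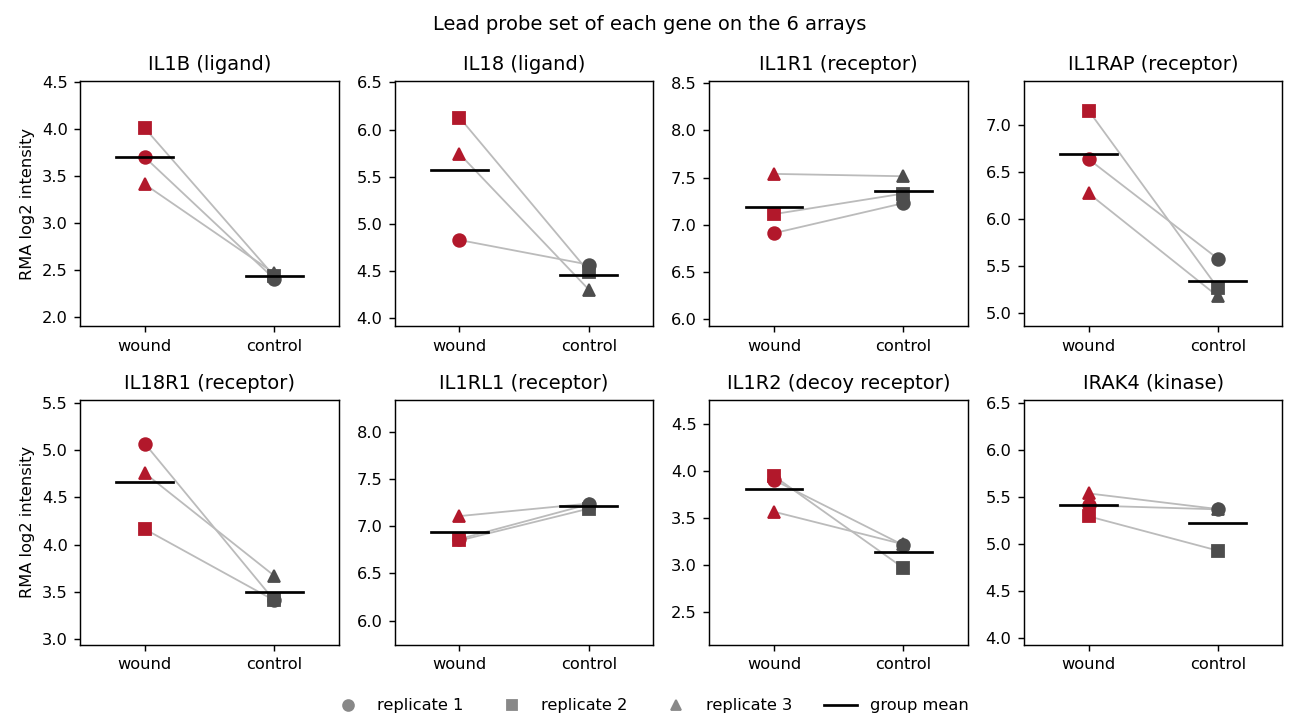
RMA log2 intensity of the lead probe set of each gene on the 3 wound arrays (red, left) and the 3 control arrays (grey, right), with group means as bars and grey lines joining arrays of equal replicate number; each panel spans the same range of log2 units. Wounds lie above controls in IL1B, IL18, IL1RAP, IL18R1 and IL1R2, below them in IL1RL1, and overlap them in IL1R1 and IRAK4.

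Of the ligands, IL1B measured 3.70, 4.01 and 3.41 (log2 intensity) in wound replicates 1, 2 and 3, against 2.41, 2.44 and 2.47 in controls. The wounds were separated from the controls by 0.94, and the controls differed from each other by far less than the wounds did. IL1B thus averaged 3.70 ± 0.30 in wounds and 2.44 ± 0.03 in controls (SD, n = 3 each). This is 2.40-fold, or 1.27 on the log2 scale (standard error, SE, 0.16, 95% interval 0.86 to 1.68, limma adjusted p = 0.0369). The controls were under the median of their array, between 3.01 and 3.05 on the 6 arrays, while the wounds were above it. At such low values a fold can be understated and the spread between arrays compressed. The SE and the adjusted p rest in part on that spread. With the replicate number as a block the adjusted p was 0.0867. The call also ended without control replicate 1, 2 or 3 (adjusted p = 0.141, 0.135 and 0.128) and without wound replicate 1 (0.0970), at log2 fold changes between 1.11 and 1.41 over all single arrays left out.

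IL18 was carried by a pair of probe sets, and neither passed the test. The brighter measured 4.83, 6.13 and 5.74 (log2 intensity) in wounds, against 4.57, 4.49 and 4.30 in controls. Wound replicate 1 stood only 0.26 above the highest control, while the other wounds were more than 1 log2 unit above. This gave a log2 fold change of 1.11 (SE 0.36, 95% interval 0.18 to 2.04, adjusted p = 0.252). The dimmer probe set measured 3.94, 4.72 and 4.27 in wounds, against 3.14, 3.26 and 3.33 in controls. Its log2 fold change was close to that of the brighter one, 1.07, with a smaller SE of 0.21 and an adjusted p of 0.0956. In both probe sets wound replicate 2 was highest and wound replicate 1 lowest.

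IL1R1, IL1RAP and IL1R2, the receptor chains of interleukin-1, all missed the threshold. IL1R1, the signalling receptor, measured 6.91, 7.11 and 7.54 in wounds, against 7.23, 7.33 and 7.51 in controls. The groups overlapped, and the controls lay inside the range of the wounds. On the log2 scale IL1R1 differed by -0.17 (SE 0.19, adjusted p = 0.854), and its 95% interval, -0.65 to 0.31, holds neither a 2-fold rise nor a 2-fold fall. IL1R1 was highest in wound replicate 3. There the summed linear signal of 7 fibroblast markers, of which 1 fell and 0 rose, was 33754. It was 19798 and 16521 in wound replicates 1 and 2 and 33000 to 35739 in controls. Wound replicate 3 was also the highest wound in the sums of endothelial (3568 against 2175 and 2146) and smooth muscle markers (1460.5 against 351 and 181). The same held for myeloid, heterophil and, narrowly, thrombocyte markers. In chorionic transport it was the lowest wound (1503 against 6484 and 8544). The part of these cell types in the result was not tested.

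IL1RAP, the accessory chain that IL1R1 needs to signal, measured 6.64, 7.15 and 6.27 in wounds by its brightest probe set, against 5.58, 5.27 and 5.18 in controls. All wounds exceeded all controls, by at least 0.69. Its log2 fold change of 1.34 (SE 0.26, 95% interval 0.68 to 2.01) exceeded those of the other 7 genes, but its adjusted p was 0.0876. The study, by another test, lists this probe set among its up-regulated genes. The other probe sets of IL1RAP differed from the brightest. The second measured 5.99, 5.23 and 5.65 in wounds and 5.53, 5.21 and 4.81 in controls, so that the groups overlapped (log2 fold change 0.44, SE 0.28, adjusted p = 0.645). Its 95% interval of -0.28 to 1.16 overlaps that of the brightest. The remaining probe set lay below the median of the array on all 6 arrays, at 2.65 in wounds and 2.62 in controls, and measured 0.03 (adjusted p = 0.445). Wound replicate 2, the highest in the brightest probe set, was the lowest wound in the second.

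IL1R2, the decoy, measured 3.90, 3.94 and 3.56 in wounds, against 3.21, 2.97 and 3.22 in controls. The wounds lay above the controls by at least 0.34, with wound replicate 3 nearest to them. The log2 fold change was 0.67 (SE 0.13, 95% interval 0.32 to 1.01), with an adjusted p of 0.0944. The controls stood near the median of their array, with control replicate 2 under it. The caution given for IL1B at low values applies here too.

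IL18R1, which binds interleukin-18, measured 5.07, 4.16 and 4.76 in wounds, against 3.41, 3.41 and 3.67 in controls. The groups did not overlap. The log2 fold change of IL18R1 was 1.17 (SE 0.26, 95% interval 0.50 to 1.83, adjusted p = 0.113). Its order among the wounds was the reverse of that of its ligand: wound replicate 1 was highest in IL18R1 and lowest in IL18, and wound replicate 2 lowest in IL18R1 and highest in IL18.

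IL1RL1 was the only member whose wounds all lay below the controls by the lead probe set. Its brighter probe set measured 6.87, 6.85 and 7.11 in wounds, against 7.23, 7.19 and 7.24 in controls. Wound replicate 3 was within 0.08 of the lowest control. The log2 fold change was -0.28 (SE 0.08, 95% interval -0.48 to -0.07, adjusted p = 0.193), and without wound replicate 3 it was -0.36 with an adjusted p of 0.0207. Leaving out that array also raised the share of all probe sets called lower, from 0.304% to 1.10%. The dimmer probe set measured 2.96, 2.62 and 3.44 in wounds and 3.55, 3.26 and 4.31 in controls. Here the groups overlapped, but each wound was below the control of its own replicate number, by 0.59, 0.64 and 0.86 (log2 fold change -0.70, SE 0.36, adjusted p = 0.524, 0.0749 with the replicate block).

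The kinase IRAK4, the first enzyme of the shared signalling chain, measured 5.41, 5.29 and 5.54 in wounds, against 5.37, 4.93 and 5.37 in controls. The groups overlapped through wound replicate 2. Its log2 fold change was 0.19 (SE 0.15, 95% interval -0.20 to 0.58, adjusted p = 0.749), and the second probe set gave 0.19 as well (SE 0.15, adjusted p = 0.754).

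**Figure D2:**
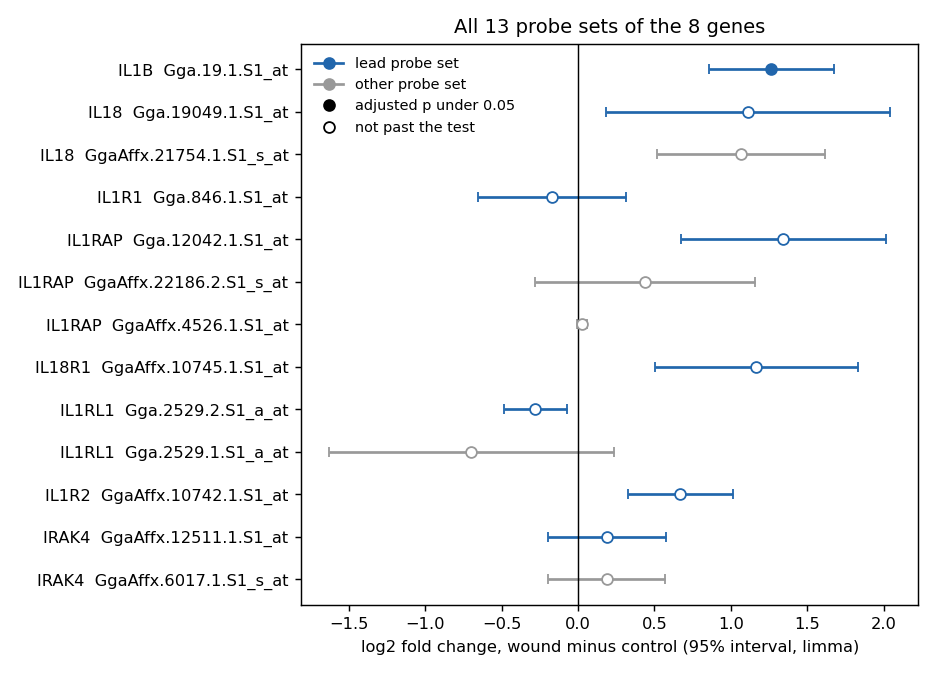
Log2 fold change, wound minus control, of all 13 probe sets with the 95% interval from limma; blue marks the lead probe set of a gene, grey the others, and a filled point an adjusted p under 0.05. The single filled point is IL1B at 1.27, and the intervals of 6 probe sets span 0: that of IL1R1, both of IRAK4, the dimmer of IL1RL1 and all of IL1RAP but the brightest.

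Ratios between a pair of probe sets on the same array show unequal change, though not which transcript is more abundant. The log2 ratio of IL1B over IL1R1 was -3.21, -3.11 and -4.13 in wounds, against -4.82, -4.89 and -5.05 in controls. IL1RAP over IL1R1 gave -0.27, 0.04 and -1.27 in wounds, against -1.65, -2.06 and -2.33 in controls. IL1R2 over IL1R1 gave -3.01, -3.17 and -3.97 in wounds, against -4.02, -4.36 and -4.29 in controls. In these 3 ratios each wound exceeded each control, by group means of 1.44, 1.51 and 0.84. The exact two-sided permutation p was 0.1 for each, the smallest that 6 arrays can give, and 0.133 after Benjamini-Hochberg adjustment over the 4 ratios computed. In each of the 3, wound replicate 3 was the wound nearest to the controls. The 3 ratios share IL1R1, which among the wounds was highest on that array, so they are not independent of each other. They also reuse the values of IL1B, IL1RAP and IL1R2 given above. The ratio of IL1RAP rests on its brightest probe set. Its second probe set, with overlapping groups and a log2 fold change of 0.44, was not set against IL1R1. IL18 over IL18R1 measured -0.24, 1.96 and 0.98 in wounds, against 1.16, 1.08 and 0.63 in controls. For this ligand and receptor the groups overlapped, with a difference of -0.06 (exact p = 0.9) and SDs of 1.11 in wounds and 0.28 in controls. Its sign rests on single arrays, since it was 0.52 without wound replicate 1 and -0.59 without wound replicate 2.

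**Figure D3:**
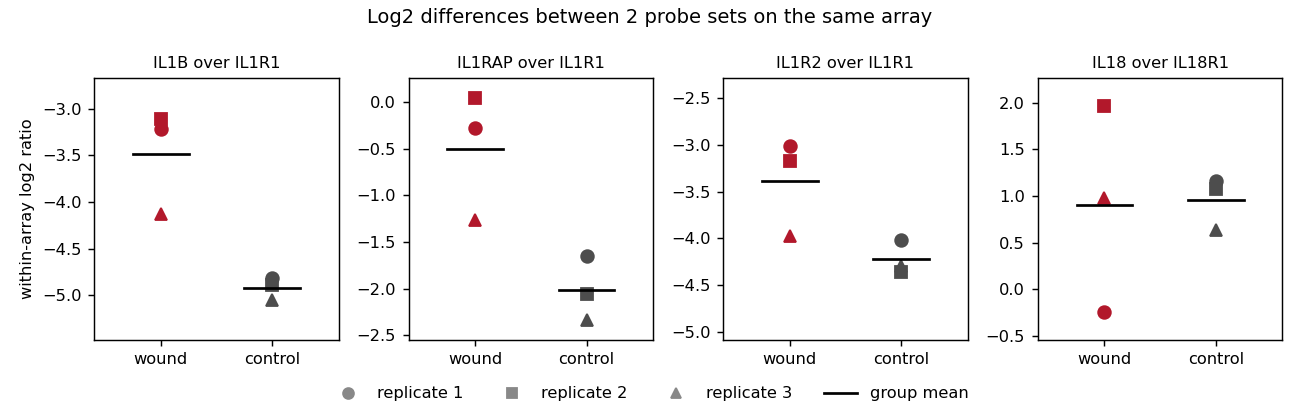
Log2 ratio of the lead probe sets of a pair of genes on the same array, for the 3 wound arrays (red, left) and the 3 control arrays (grey, right), with group means as bars; each panel spans the same range of log2 units. Wounds lie above controls for the 3 ratios over IL1R1 and on both sides of them for IL18 over IL18R1.

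Several receptor genes of the family neighbour each other. In the RefSeq gene table of the assembly GRCg7b the order is IL1R2, IL1R1, IL1RL2, IL1RL1, IL18R1 and IL18RAP, of which 5 were measured. Along this order the log2 fold changes were 0.67 for IL1R2, -0.17 for IL1R1, -0.10 for IL1RL2, -0.28 for IL1RL1 and 1.17 for IL18R1. The positive values thus stood at both ends of the measured row and the negative ones between them. The genes that flank the row, MAP4K4 before IL1R2 and SLC9A4 after IL18RAP, measured -0.16 (adjusted p = 0.919) and 0.32 (adjusted p = 0.327). IL1RL2, the receptor of the interleukin-36 cytokines in mammals, measured 4.92, 4.15 and 4.28 in wounds and 4.97, 4.28 and 4.39 in controls, so that each wound stayed within 0.13 of the control of its number (adjusted p = 0.990).

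Over 13001 other genes, those whose pattern over the 6 arrays was most like that of IL1B were MFSD14A, ZMYND19 and SACM1L, with Pearson's r of 0.999, 0.998 and 0.998. All 3 shared with IL1B the order of the wounds, with replicate 2 highest and replicate 3 lowest. Their changes were smaller than that of IL1B, with log2 fold changes of 0.70, 0.44 and 0.59. A coefficient over 0.95 was reached by 489 genes, 3.76% of those compared, and the 6 points share the difference between the groups, so these values are a description.

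The rest of the pathway was described through 6 lists of 109 genes, of which 75 had a probe set. Past the test 5 were higher and 0 lower, and 70 missed it, which is 6.67% higher, near the 3.92% of all genes. With the replicate block 3 others passed, TOLLIP, UBE2N and JUN, and 0 of the 5 did. Without control replicate 1, 2 or 3 the count was 0, and without wound replicate 1 or 2 it was 3. The share of all probe sets called higher fell as well, from 2.04% in the main fit to 0.702% with the block. It was 0.362%, 0.107% and 0.0572% without control replicate 1, 2 or 3, and 0.918% and 0.911% without wound replicate 1 or 2. In 28 of the 75, or 37.3%, the wounds lay above the controls, against 20.8% of all genes.

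Of 28 measured genes known to be induced by interleukin-1 or interleukin-18, 3 rose, 0 fell and 25 did not pass, with a median of 0.53, and 0 passed with the block. BCL2A1, which protects cells from apoptosis, measured 5.49, 6.01 and 5.34 in wounds, against 3.39, 3.15 and 3.29 in controls (log2 fold change 2.34, adjusted p = 0.0190, 0.0697 blocked). IL8L2, a chicken chemokine related to interleukin-8, measured 8.79, 8.36 and 8.68 in wounds, against 6.80, 6.76 and 6.60 in controls (1.89, adjusted p = 0.0153, 0.0563 blocked). ZC3H12A, a ribonuclease that in mice degrades transcripts of inflammatory cytokines, measured 5.70, 5.75 and 5.21 in wounds, against 4.05, 3.65 and 4.18 in controls (1.59, adjusted p = 0.0424, 0.122 blocked). In all 3 the wounds stood more than 1 log2 unit above the highest control. SOD2, a mitochondrial superoxide dismutase, and the coagulation starter F3, the brightest members that did not pass, measured 0.57 (adjusted p = 0.115) and 1.12 (adjusted p = 0.0835).

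Of 24 genes of the NF-κB and MAP kinase branch, 1 rose, 0 fell and 23 did not pass, with a median of 0.23. CEBPB, a transcription factor of inflammatory genes, measured 11.48, 12.09 and 11.75 in wounds, against 10.50, 10.69 and 10.52 in controls (log2 fold change 1.20, adjusted p = 0.0463, 0.0637 blocked). JUN, a partner in the factor AP-1, measured 0.84 (adjusted p = 0.103, 0.0417 blocked) and the stress kinase MAPK14 0.33 (adjusted p = 0.259).

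Of 13 adaptors and kinases that sit next to the receptor, beside IRAK4, 0 rose and 0 fell by limma, 3 reached an unadjusted p under 0.05, and the median was 0.12. With the block 2 of them passed. TOLLIP, which binds IRAK1 and restrains the receptor complex, measured 8.87, 8.92 and 8.65 in wounds, against 8.29, 8.25 and 8.07 in controls (log2 fold change 0.61, adjusted p = 0.0617, 0.0443 blocked). UBE2N, which builds the ubiquitin chains made by TRAF6, measured 10.40, 10.32 and 10.13 in wounds, against 9.90, 9.83 and 9.67 in controls (log2 fold change 0.48, adjusted p = 0.0941, 0.0417 blocked). The scaffold SQSTM1 measured 0.72 (adjusted p = 0.364). TOLLIP, and the adaptor MYD88 and the ligase TRAF6, which measured -0.04 (adjusted p = 0.992) and -0.04 (adjusted p = 0.998), were chosen after their values were seen.

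Of 6 genes for the processing and release of the cytokines, 1 rose and 5 did not pass, with a median of 0.02. CASP8, a caspase of death receptor signalling, measured 6.38, 6.63 and 6.36 in wounds, against 5.75, 5.85 and 5.75 in controls (log2 fold change 0.67, adjusted p = 0.0384, 0.0577 blocked). CASP1, which cuts both cytokines in mammals, measured 7.35, 7.40 and 6.88 in wounds, against 7.17, 7.42 and 6.97 in controls, with overlapping groups (0.03, adjusted p = 0.998). The protease CTSG measured 1.02 (adjusted p = 0.295). Among other receptor chains and inhibitors, 0 of the 4 measured genes passed in either direction by limma, and 0 reached an unadjusted p under 0.05. They were IL1RL2, the synaptic chains IL1RAPL1 (-0.01, adjusted p = 0.991) and IL1RAPL2 (0.00, adjusted p = 0.9998), and the inhibitory receptor SIGIRR (-0.25, adjusted p = 0.635). IL1RAPL1 was chosen after its value was seen. The antagonist IL1RN, the binding protein IL18BP and the second interleukin-18 chain IL18RAP matched no singly annotated probe set and were not analysed here.

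**Figure D4:**
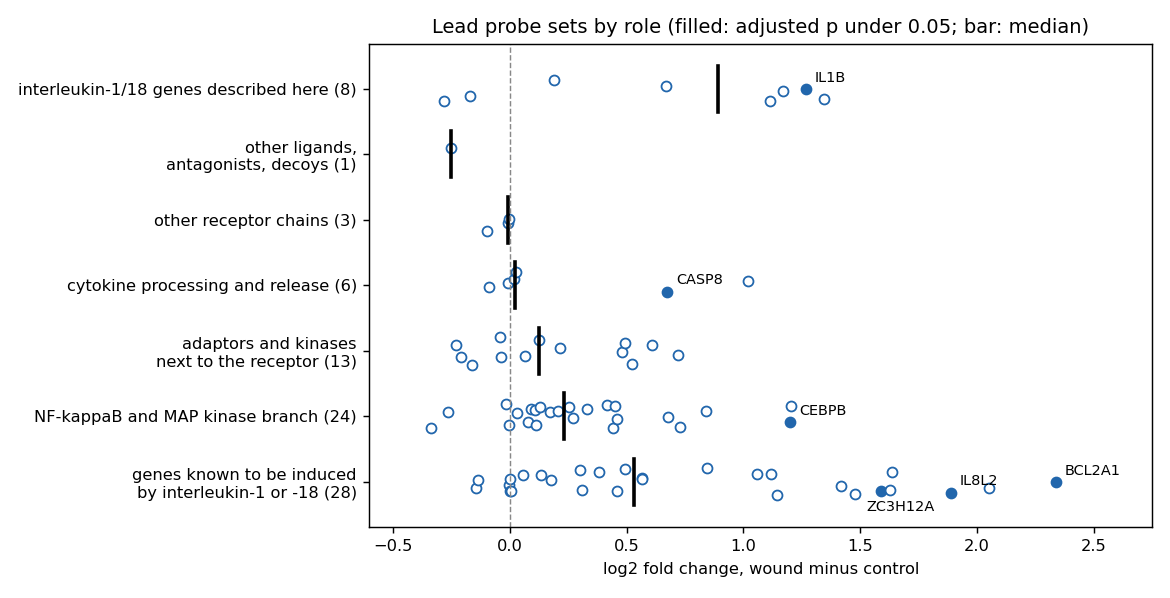
Log2 fold change, wound minus control, of the lead probe set of each measured gene, by role, with the number of genes in brackets, filled points for an adjusted p under 0.05 and a black bar at the median of each list; points are spread vertically for legibility. Medians are 0.89 for the 8 genes described here, 0.53 for induced genes and 0.23 or less for the other lists.

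Markers of several cell types differed between the same samples. Of 13 measured myeloid markers 9 rose, of which 1, LY96, also passed with the replicate block (adjusted p = 0.0469). In all 13 the wounds lay above the controls, and their summed linear signal was 4022 to 5002 in wounds and 779 to 1119 in controls. Over all genes, 3.92% were called higher and 0.392% lower, and the wounds lay above the controls in 20.8% and below them in 7.81%. In all 8 endothelial markers the wounds lay below the controls, and 1 fell. Their sum was 2146 to 3568 in wounds and 4577 to 5206 in controls. For 5 epithelial markers, of which 2 rose, the sum was 11494 to 11867 in wounds and 6572 to 6787 in controls. These endothelial and epithelial calls, and the fibroblast one above, were lost with the block. Only 3 of 11 listed markers of heterophils, the avian counterpart of neutrophils, matched a singly annotated probe set by symbol, and 0 passed. The study lists S100A9 and RSFR, which are also on this list but were not matched here, among its up-regulated genes. Their sum was 3340.0 to 6461 in wounds and 4770 to 5997 in controls. It follows CATH1, by far the brightest, in which the groups overlapped (means of 12.19 in wounds and 12.38 in controls). In CSF3R (log2 fold change 0.99, adjusted p = 0.199) and MMP9 (1.48, adjusted p = 0.0896) the wounds lay above the controls. For 3 thrombocyte markers, of which 0 passed, the sum was 83.4 to 107 in wounds and 122 to 155 in controls. It follows ITGB3, the brightest, in which the wounds lay below the controls (-0.59, adjusted p = 0.193). In TBXAS1 the wounds lay above the controls (0.43, adjusted p = 0.397), and in GP9 the groups overlapped (-0.12, adjusted p = 0.963). For 6 T cell markers, of which CD28 and ZAP70 lay under the median on all arrays, the sum was 133 to 160 in wounds and 63.6 to 82.9 in controls. None of them passed, and their median log2 fold change was 0.01. The sum follows CD3D, the brightest (1.36, adjusted p = 0.0554). In CD3E the wounds also lay above the controls (0.66, adjusted p = 0.226), while in CD4, CD8A, CD28 and ZAP70 the groups overlapped. Of the 4 measured genes listed for chorionic transport, 0 lay under the median on all arrays, though CALB1, at 3.19 in wounds and 3.26 in controls, stood little above it. Their sum was 6484, 8544 and 1503 in wound replicates 1, 2 and 3, against 7298, 7883 and 2168 in controls, so that both replicate 3 arrays were low. This lay mostly in CA2, at 9.20 in wound replicate 3 and 9.47 in control replicate 3, against 12.33 to 12.74 on the other arrays. For 4 smooth muscle markers, with a median log2 fold change of -1.47, the sum was 351, 181 and 1460.5 in wounds, against 1323, 1213 and 1054 in controls. Of these markers 0 passed, and in TAGLN and MYH11 the groups overlapped. In ACTA2 and DES the wounds lay below the controls, with ACTA2 under the median of the array in wounds. For 4 erythroid markers the sum was 52799 to 64016 in wounds and 54155 to 61176 in controls. The part of these cell types in the values of IL1B, IL18, IL1RAP, IL18R1, IL1R2 and IL1RL1 was not tested.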

How the data were processed

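The values the authors deposited are log2 intensities, made by RMA according to the submitters' processing notes (version: not given in the sources used here). Of 38535 probe sets 96 controls were left out. By the platform annotation 27168 of the rest have 1 gene symbol, 177 several and 11094 none.

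Wounds and controls were compared in R 4.3.3 by lmFit and eBayes of limma 3.58.1, and p-values adjusted by Benjamini-Hochberg over 38439 probe sets, with a threshold of 0.05. The two-class SAM with a rank statistic that the methods name was not run, and limma stands in for it. Ranks of 3 against 3 arrays cannot give a single probe set a p under 0.1. The study called its genes with SAM through a false discovery rate from permutations, so its calls and those here come from unlike tests. Whether wound and control of the same replicate number come from the same egg is not stated. Their deviations from the group means correlated across probe sets with r of 0.58, 0.63 and 0.45, so the numbers were read as pairs. The fit reported is unpaired, and values with the replicate number as a block are given where they change a call. On simulated data for this comparison, over 38439 probe sets, limma recovered 39 of 67 probe sets changed by a log2 value of 1, 50 of 67 at 2 and 62 of 66 at 3. It also called 14 unchanged probe sets. With the block it recovered 32 of 67, 38 of 67 and 50 of 66, and called 4 unchanged ones. The simulated arrays were drawn independently, without the correlation between equal replicate numbers seen in the data.

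The members, lists and tests were chosen with earlier results of these data known, and IL1B, IL1RAP, IL8L2 (there IL8), BCL2A1, ZC3H12A, CEBPB and F3, among the genes named, and several of the markers are in the study's own tables, so their direction is not independent evidence. Named are every member, in each list up to 8 genes past the test and the 2 brightest others, and the 3 genes most like IL1B. Alternatives were the block, quantile normalization, a filter on probe sets with a mean under the median of 3.05, a trended and robust variance, a threshold of 0.1, other probe sets and leaving out each array. Python 3.11.15, scipy 1.17.1, numpy 2.4.6, pandas 2.3.3 and matplotlib 3.10.9 served for tables and plots.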

Additional observations from a re-analysis of the deposited data

How the results depend on the processing

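The number of the 8 genes that rose was 1, and became 0 with the replicate block or quantile normalization, 4 with the filter on dim probe sets, 3 with the block and the filter together, and 3 at a threshold of 0.1. Leaving out 1 array gave 0 to 2, and 0 to 1 genes lower. Calls over all probe sets fell with the block and after quantile normalization, and rose with the filter, as given below. Their share at a threshold of 0.1 was not counted. The share higher was 2.04% in the main fit, 0.702% with the block and 0.315% after quantile normalization. With single arrays left out it was 0.0572% to 2.06%. With the block IL1B did not pass (adjusted p = 0.0867), and its log2 fold change of 1.27 is the same by construction. After quantile normalization IL1B measured 1.27 (adjusted p = 0.0765), also without passing, and with single arrays left out 1.11 to 1.41. With the filter IL1RAP (1.34, adjusted p = 0.0326), IL18R1 (1.17, 0.0427) and IL1R2 (0.67, 0.0425) passed, and with filter and block IL1RAP (1.34, 0.0350) and IL18R1 (1.17, 0.0403). The filter leaves 19219 probe sets, 12 of the 13 member probe sets among them, and there 7.40% were higher and 1.90% lower, or 10.9% and 3.56% with the block. IL1B passed the filter at a mean of 3.07 with a control mean of 2.44 below it, so only through the wounds. Without wound replicate 3, IL1R2 (0.79, 0.0493) and IL1RL1 (-0.36, 0.0207) passed. In that setting 2.06% of all probe sets were called higher and 1.10% lower, against 2.04% and 0.304% in the main fit. Over single arrays left out, IL1RL1 ranged from -0.36 to -0.23 and IL1R2 from 0.59 to 0.79. Quantile normalization moved IL1RL1 from -0.28 to -0.42 (adjusted p = 0.0825) and IL1R1 from -0.17 to -0.31 (adjusted p = 0.516), and neither passed. It gave 1.24 for IL1RAP, 1.04 for IL18, 1.14 for IL18R1, 0.67 for IL1R2 and 0.11 for IRAK4. Of 93 single values of the 8 genes under alternatives, 80 kept their direction and side of the threshold and 0 reversed. The block, the filter and the trended variance leave every log2 fold change as it was, so under these no direction could reverse. Of the 75 pathway genes, 5 rose, against 11 with the filter, 17 with filter and block, 3 with the block, 2 after quantile normalization, 12 at a threshold of 0.1, and 0 to 6 with single arrays left out. Without the filter the block changed no call among the 8 genes but that of IL1B, and with the filter it ended that of IL1R2 (adjusted p = 0.0594). The causes of these changes were not tested.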
